A study of Mus musculus with 32 samples.

Results

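The maternal-effect genes of the oocyte studied here are Nlrp5, Nlrp14, Ooep, Khdc3, Padi6, Tle6, Dppa3, Npm2 and Zar1, 9 of the 19938 genes named on the array. They were chosen by name, and every probe that the platform annotation gives to exactly 1 gene symbol equal to one of them was used, which came to 11 of 35556 probes. Dppa3 and Zar1 have 2 probes each, and the other 7 genes have 1. Mouse Gene 1.0 ST arrays had been hybridised with RNA of EGFP-positive cells, sorted from fetal gonads at 17.5 dpc (days post coitum). The study asked whether an endocrine disruptor (ED) given to a pregnant dam changes transcription in the germ cells of the exposed fetuses (G1R) and in those of the next, unexposed generation (G2R). From 12.5 dpc the dams of the G1R fetuses received the vehicle (oil), the fungicide vinclozolin (VZ), the plasticizer di-(2-ethylhexyl)phthalate (DEHP) or the plastic monomer bisphenol A (BPA). The daily doses per kg were 100 mg of VZ, 750 mg of DEHP and 0.2 mg of BPA.

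The G1R fetuses carried the genotype FVBxOG2 and the G2R fetuses OG2xFVB, so all 32 arrays come from crosses of the same 2 lines, in opposite directions in the 2 generations. OG2 is a transgenic line with EGFP under the Oct4 promoter, and the sort therefore depends on a reporter of Oct4 (Pou5f1), whose own signal was lower in oil females than in oil males (log2 difference -3.18). There were 4 female groups (G1R oil, BPA, DEHP and VZ, 11 arrays) and 7 male groups (the same 4 treatments in G1R, and oil, DEHP and VZ in G2R, 21 arrays), with 3 arrays per group except 2 for G1R DEHP females. G2R fetuses descend from exposed G1 males and were not dosed themselves. The labels number the samples of a group without tying them to separate litters or pools, so the p-values measure the spread between these samples, which may in part be technical.

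The labels name the cells primordial germ cells or prospermatogonia in both sexes, and the expression of cell type markers was checked before the results. The germ cell genes Ddx4 (mean log2 signal 11.59 in oil females and 11.62 in oil males) and Mael did not pass the test between oil females and males, Sycp3, a protein of the meiotic chromosome axis, and Dazl were higher in females (2.97 and 0.375), and all 4 measured Y-linked genes were lower in females. The 7 oocyte transcription factors averaged 10.17 to 10.47 on the female arrays and 7.78 to 8.1 on the male arrays, and the prospermatogonia markers 8.13 to 8.36 and 9.93 to 10.35. Of these 5 markers Dnmt3l (-5.72) and Piwil4 (-3.71) were lower in oil females, Tdrd9 was higher (0.28), and Nanos2 (0.09) and Tex101 (-0.17) did not pass. The female cells are called fetal oocytes below from the oocyte transcription factors, Dnmt3l and Piwil4. Markers of granulosa cells averaged 6.95 to 7.38 in females and 7.2 to 7.69 in males, and those of Sertoli cells 7.1 to 7.34 and 7.21 to 8.91. Signals are log2 RMA values, and the array medians ran from 7.29 to 7.5.

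Maternal-effect genes are transcribed in the oocyte, and their products act after fertilization, in the egg and the early embryo, which depends on the mother's copy. NLRP5 (MATER), OOEP, TLE6, KHDC3 (FILIA) and PADI6 belong to the subcortical maternal complex and the cytoplasmic lattices of the egg, structures that embryos need to pass the first cleavages. NLRP14 is another NLRP protein of the oocyte, DPPA3 (STELLA) protects the maternal genome from loss of DNA methylation in the zygote, NPM2 is a histone chaperone of the nucleoplasmin family, and ZAR1 binds maternal mRNAs. In the fetal ovary germ cells have entered meiosis at this age, while male germ cells are in mitotic arrest.

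Promoter sequences were available for 6 of the 9 genes (RefSeq, GRCm38.p6), and those of Nlrp5, Padi6 and Ooep, which were higher in females, are shown with that of Tle6, a complex partner whose sex difference did not pass the test. Each line gives the 250 bases before the first annotated start, 5′ to 3′ on the gene's own strand, at chr7:23385639-23385888 (plus strand) for Nlrp5, chr4:140742644-140742893 (minus) for Padi6, chr9:78378589-78378838 (minus) for Ooep and chr10:81600901-81601150 (minus) for Tle6. Capitals mark matches to CANNTG (the E-box bound by FIGLA and SOHLH proteins), TAATTG or TAATTA (NOBOX-type elements) on either strand.
Nlrp5: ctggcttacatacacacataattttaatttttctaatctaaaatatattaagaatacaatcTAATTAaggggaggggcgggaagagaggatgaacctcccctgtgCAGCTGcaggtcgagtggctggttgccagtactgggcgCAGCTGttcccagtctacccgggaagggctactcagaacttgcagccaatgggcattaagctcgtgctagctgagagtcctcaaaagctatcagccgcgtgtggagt
Padi6: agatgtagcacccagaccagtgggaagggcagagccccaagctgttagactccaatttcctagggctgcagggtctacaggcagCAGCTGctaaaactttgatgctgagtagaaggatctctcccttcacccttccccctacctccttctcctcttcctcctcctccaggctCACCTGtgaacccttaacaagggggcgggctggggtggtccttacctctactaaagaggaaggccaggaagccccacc
Ooep: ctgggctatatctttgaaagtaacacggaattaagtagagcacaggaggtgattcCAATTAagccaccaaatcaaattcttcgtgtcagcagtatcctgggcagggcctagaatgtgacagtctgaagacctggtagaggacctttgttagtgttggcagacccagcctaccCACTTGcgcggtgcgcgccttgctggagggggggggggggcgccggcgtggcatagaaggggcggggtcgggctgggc
Tle6: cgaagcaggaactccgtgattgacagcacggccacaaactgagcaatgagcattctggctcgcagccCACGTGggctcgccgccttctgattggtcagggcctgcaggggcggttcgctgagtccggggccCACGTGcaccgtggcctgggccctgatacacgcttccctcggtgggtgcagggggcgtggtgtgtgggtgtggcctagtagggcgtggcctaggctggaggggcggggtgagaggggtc
CANNTG was found in the promoters of all 6 genes and in 66.2% of 32851 mouse promoters of this length. The E-boxes of Nlrp5 begin 145 and 107 bases before the start, and Nlrp5 also holds TAATTA 189 bases before it, a motif in 4.84% of promoters. TAATTG, present in 7.17% of promoters, was found in Ooep, 195 bases before its start. E-boxes lie before Padi6 at 166 and 78 bases and before Tle6 at 183 and 119 bases, and neither of these windows holds TAATTA or TAATTG. The RefSeq table gives Nlrp5 and Tle6 a second annotated start each, and the matches above are those of the first. TATAAA, found in 12.4% of all promoters, had no match in the windows shown and lies 134 and 56 bases before the second start of Nlrp5 (chr7:23403852-23404101, plus strand), where no TAATTA was found. Before the second start of Tle6 (chr10:81597368-81597617, minus strand) CANNTG was the 1 motif found, with 4 matches. These matches are descriptions of the letters in the window and say nothing of binding.

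Nlrp5, both Dppa3 probes, Padi6, Ooep and Npm2 had higher signal in fetal oocytes than in male germ cells under every treatment, while Tle6 and Nlrp14 did not pass the test in any treatment and 1 Zar1 probe was lower in oocytes. In the oil controls the female excess went from 1.35-fold for Npm2 to 26.5-fold for Nlrp5. Among the oil arrays 7 of the 11 probes passed the limma test at a Benjamini-Hochberg adjusted p under 0.05 over all probes (6 higher and 1 lower in females). Of all probes 54.3% passed, 28.7% higher and 25.6% lower. The median female minus male difference was 0.43 over the 11 probes and 0.05 over all probes. In bulk RNA of sorted cells, fewer cells of a type and less RNA per cell cannot be told apart.

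Nlrp5, the founding component of the complex, read 12.59, 11.64 and 12.01 in the 3 oil females and 7.42, 7.61 and 7.04 in the 3 oil males. The 8 ED-treated female arrays read 11.74, 12.64 and 12.12 (BPA), 12.36 and 12.40 (DEHP), and 12.24, 12.42 and 12.18 (VZ). Every female array lay above every male array, the highest of the 21 males being 7.80, with a gap of 3.84 between the sexes. The oil difference was 4.73 (SE 0.20, n = 3 and 3), a 26.5-fold higher signal in females (limma adjusted p = 2.15e-16). It was 4.66 under BPA, 4.93 under DEHP and 4.76 under VZ. In males the mean signal of 7.39 lay above that of 98.1% of 1035 olfactory receptor probes. These probes serve here as a description of signals near background, and whether germ cells transcribe some of them was not analysed.

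Padi6, a member of the peptidylarginine deiminase family needed for the lattices, was also an oocyte gene, but with a wider spread. Its oil females read 9.29, 7.66 and 8.42, and its oil males 6.62, 6.80 and 6.66. The treated females read 8.14, 9.84 and 8.48 (BPA), 9.37 and 9.18 (DEHP), and 8.74, 9.25 and 8.50 (VZ), so the highest and the lowest female array differed by 2.18. The sexes still did not overlap, with males at 6.80 or lower. The oil difference was 1.77 (SE 0.32, 3.40-fold, limma adjusted p = 3.10e-05), and those under BPA, DEHP and VZ were 2.26, 2.79 and 2.24. The male mean of 6.55 lay above 90.8% of olfactory receptor probes and was not told apart from background, so the fold is one of signals, with transcripts in males not shown.

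Ooep, a KH domain protein of the complex, was expressed in both sexes. It read 9.06, 8.83 and 8.95 in oil females against 8.40, 8.32 and 8.47 in oil males, and the 2 sets did not overlap. The difference was 0.55 in oil (SE 0.14, limma adjusted p = 0.00126), 0.88 under BPA, 1.03 under DEHP and 0.77 under VZ. Over all arrays the lowest female, 8.71, was 0.24 above the highest male.

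Tle6, a Groucho-type co-repressor relative that joins the same complex, was high in both sexes, at 10.11 to 10.87 (median 10.47) in females and 10.21 to 10.66 (median 10.46) in males. The sexes overlapped throughout. The oil difference was -0.03 (95% interval -0.30 to 0.24) and the mean of the 4 sex differences was 0.01 (95% interval -0.13 to 0.15), which turned to -0.15 (adjusted p = 0.0359) after cyclic loess normalization. Khdc3, the other KH domain partner, read 6.77 to 7.08 in females and 6.37 to 6.94 in males, and 93.3% of olfactory receptor probes lay below its male mean. Its sex difference was 0.06 in oil and passed the test under VZ alone among the 4 treatments (0.32, limma adjusted p = 0.00718), where the male arrays read 6.43, 6.43 and 6.68 and the females 6.83, 6.86 and 6.80. With cyclic loess it also passed under BPA (0.28, adjusted p = 0.0223). The Nlrp14 signal was dim, at 5.69 to 7.12 in the oocytes and 5.89 to 6.81 in male germ cells, and its sex differences lay between -0.32 and 0.25 with no call.

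Dppa3 had the largest sex differences of the 9 genes after Nlrp5. Its probe 10541515 read 11.18, 10.70 and 11.14 in oil females and 7.59, 7.24 and 7.11 in oil males, and its probe 10604135 read 11.30, 10.79 and 11.10 against 7.01, 7.03 and 6.71. The oil differences were 3.70 and 4.15 (limma adjusted p = 4.72e-14 and 4.65e-15), and the gaps between the sexes over all 32 arrays were 2.84 and 2.78. The male means lay above 96.9% and 95.7% of olfactory receptor probes. Dppa3 has near-identical copies in the genome, and which of the copies the 2 probes read was not analysed here.

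Npm2 was dim, at 5.79 to 6.34 in females and 5.13 to 5.72 in males, and 75.4% of olfactory receptor probes lay below its female mean. The sexes did not overlap on any array, by a margin of 0.068. Its oil females read 6.04, 6.15 and 6.08 and its oil males 5.69, 5.69 and 5.58, a difference of 0.43 (limma adjusted p = 0.00158). Under BPA the difference was 0.35, and that call was lost after cyclic loess normalization (0.24, adjusted p = 0.0813), without BPA female 2 (0.26, 0.0672) and without BPA male 3 (0.28, 0.0530).

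Zar1 moved the other way on 1 of its probes. Probe 10530496 read 7.45, 7.48 and 7.59 in oil females and 8.06, 8.01 and 7.84 in oil males, a difference of -0.46 (limma adjusted p = 8.56e-04). It was lower in females in the other 3 treatments too (-0.43, -0.36 and -0.32), although the DEHP call was lost without DEHP male 3 or female 2 (adjusted p = 0.0670 and 0.167) and the VZ call without VZ male 1 or female 1 (0.0653 and 0.0579). Probe 10522391 did not pass in any treatment, with differences between -0.23 and -0.07. The mean of its 4 sex differences was -0.14 (adjusted p = 0.0199), and -0.05 (0.354) after cyclic loess. Of olfactory receptor probes, 98.5% lay below the female mean of probe 10530496 and 99.4% below its male mean. For probe 10522391 these shares were 96.1% and 97.4%. The 2 Zar1 probes differ, and which of them reads the Zar1 transcript itself was not analysed here.

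**Figure D1:**
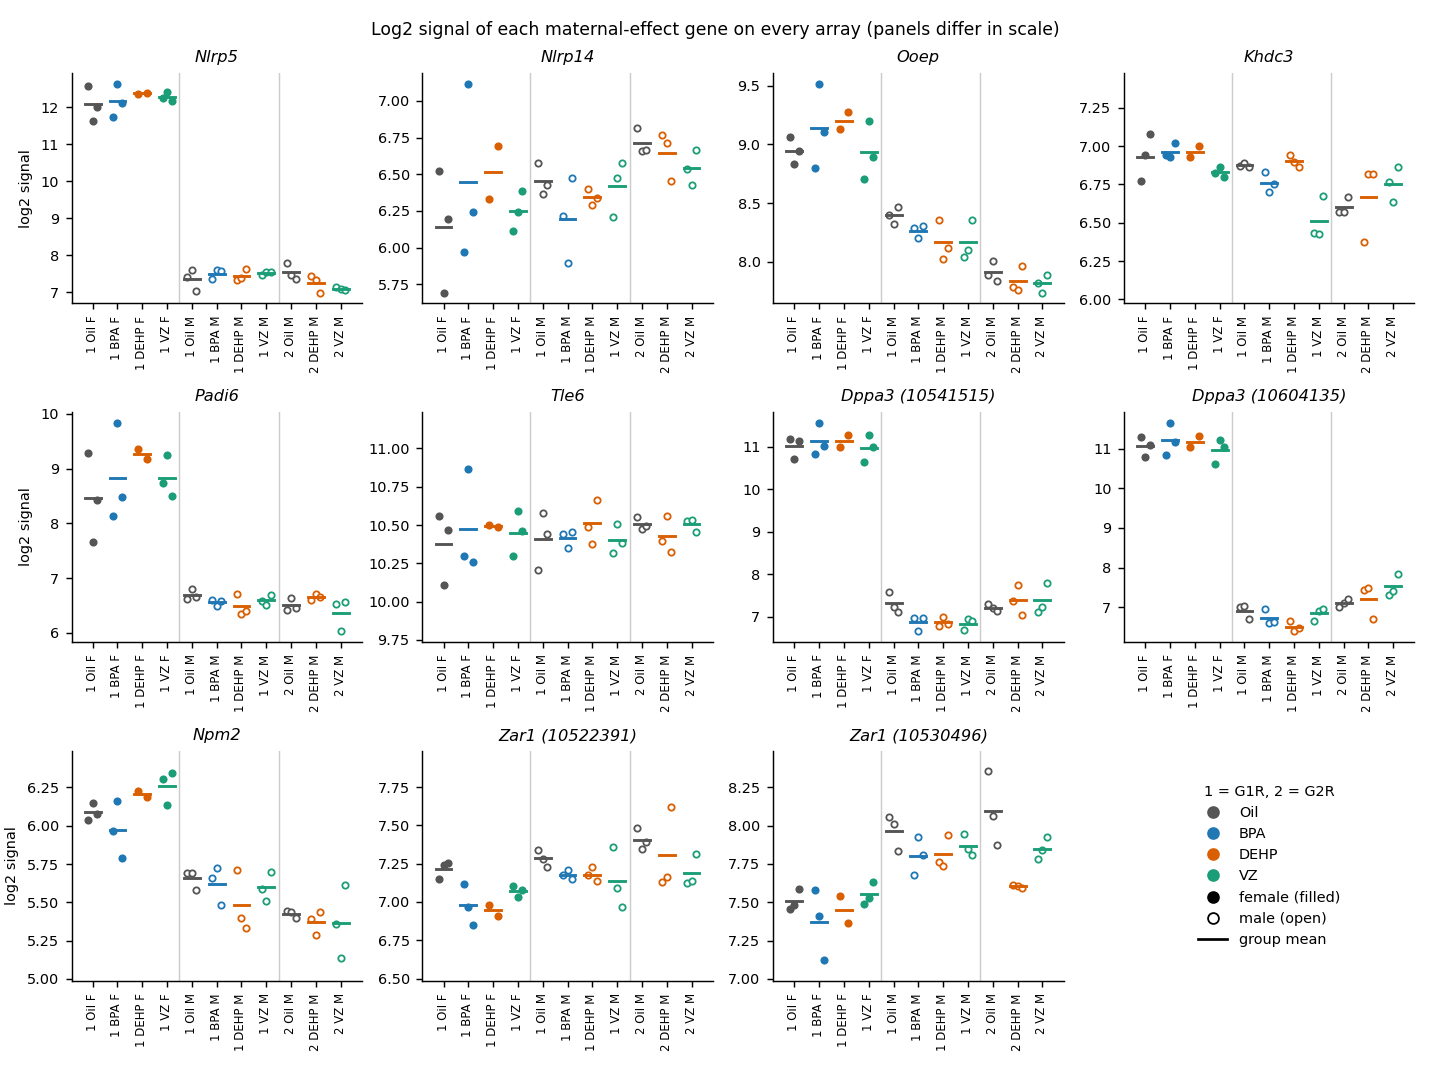
Log2 signal of the 11 probes of the 9 genes on each of the 32 arrays (y axis, log2, a scale of its own in each panel), by group (x axis, 1 for G1R and 2 for G2R). Filled points are female, open points male, and bars are group means. Nlrp5, Dppa3, Padi6, Ooep and Npm2 separate the sexes on all arrays, whereas Tle6, Nlrp14, Khdc3 and Zar1 overlap.

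The counts were alike in the other treatments. With BPA 7 of 11 probes passed, 6 higher and 1 lower (55.8% of all probes, 30.6% higher and 25.1% lower). With DEHP 7 passed, 6 higher and 1 lower (52.1%, 28.5% and 23.6%), and with VZ 8, 7 higher and 1 lower (55.4%, 31% and 24.5%). Over the mean of the 4 sex differences 9 passed, 7 higher and 2 lower (75.4%, 43.6% and 31.8%), Tle6 and Nlrp14 being the exceptions. The 3 arrays of one sex did not overlap those of the other for 7 probes in oil (59.8% of all probes), 9 under BPA (61%), 8 under DEHP (68.2%, with 2 female arrays) and 8 under VZ (64.1%). The counts of calls in either direction are near the shares of the whole array, and whether the 11 probes differ from all probes in direction was not tested. In limma 0 of 33 sex-by-treatment terms of the 11 probes passed (0% of all probes) and 2 had an unadjusted p under 0.05, 1.02 for Padi6 (adjusted p = 0.651) and 0.49 for Ooep (0.618) under DEHP. Of all 35556 probes, 2656 had an unadjusted p under 0.05 for the DEHP term.

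**Figure D2:**
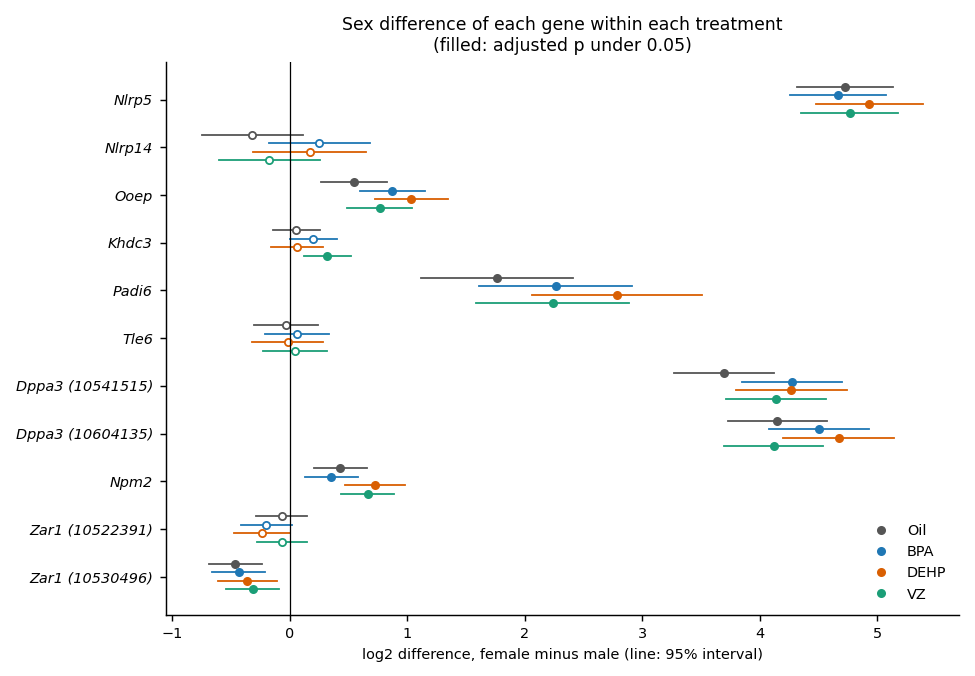
Female minus male log2 difference (x axis) of each probe (y axis) within oil, BPA, DEHP and VZ in G1R, with 95% intervals from the limma fit. Filled points have an adjusted p under 0.05. The intervals of Nlrp5 lie between 4.255 and 5.39, and those of Tle6 and Nlrp14 include 0 in all 4 treatments.

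Relatives from the same gene families were more often lower than higher in fetal oocytes. Of 23 family relatives measured, 3 were higher and 11 lower in oil females, with a median of -0.29. Over all probes 28.7% were higher and 25.6% lower. Nlrp9b (-3.83), Nlrp4e (-2.26) and Nlrp4c (-2.12), close relatives of Nlrp5, and Padi3 (-2.30), a relative of Padi6, were lower in the oocytes. Nlrp4b was higher (1.06), as were Tle1 (0.50) and Tle4 (0.34). The 28 other maternal-effect genes (31 probes) gave 16 probes higher and 4 lower with a median of 0.31, and Nlrp2, Nlrp4f and Zar1l stand in both lists. Zbed3, which joins the subcortical complex, was higher by 3.66, Uhrf1, which recruits the maintenance DNA methyltransferase, by 2.36, Ube2a, a ubiquitin-conjugating enzyme, by 2.34 and Gclm, a subunit of the first enzyme of glutathione synthesis, by 1.79.

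Of the 7 oocyte transcription factors, 6 were higher, with Lhx8 at 4.01, Nobox at 3.59, Figla at 3.47 and Sohlh2 at 2.52, and Taf4b was lower (-0.28). Figla, Nobox, Lhx8 and the Sohlh genes are known regulators of oocyte genes. Of the 6 zona pellucida and oocyte growth factor genes, Zp2 (1.2), Bmp15 (0.46) and Zp1 (0.44) were higher and Zp3 was lower (-2.08), while Gdf9 (0.17) and Oosp1 (-0.17) did not pass. Of the somatic markers, all 5 endothelial genes and 4 of 5 peritubular genes were lower in oil females. So were 3 of 10 Sertoli genes, 4 of 9 granulosa probes and 2 of 4 fetal Leydig genes, and 0 probes of these lists were higher. Of all probes 25.6% were lower, a share near that of the Sertoli genes. None of the 4 macrophage and blood genes passed. The part of these cells in the sex differences was not tested.

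**Figure D3:**
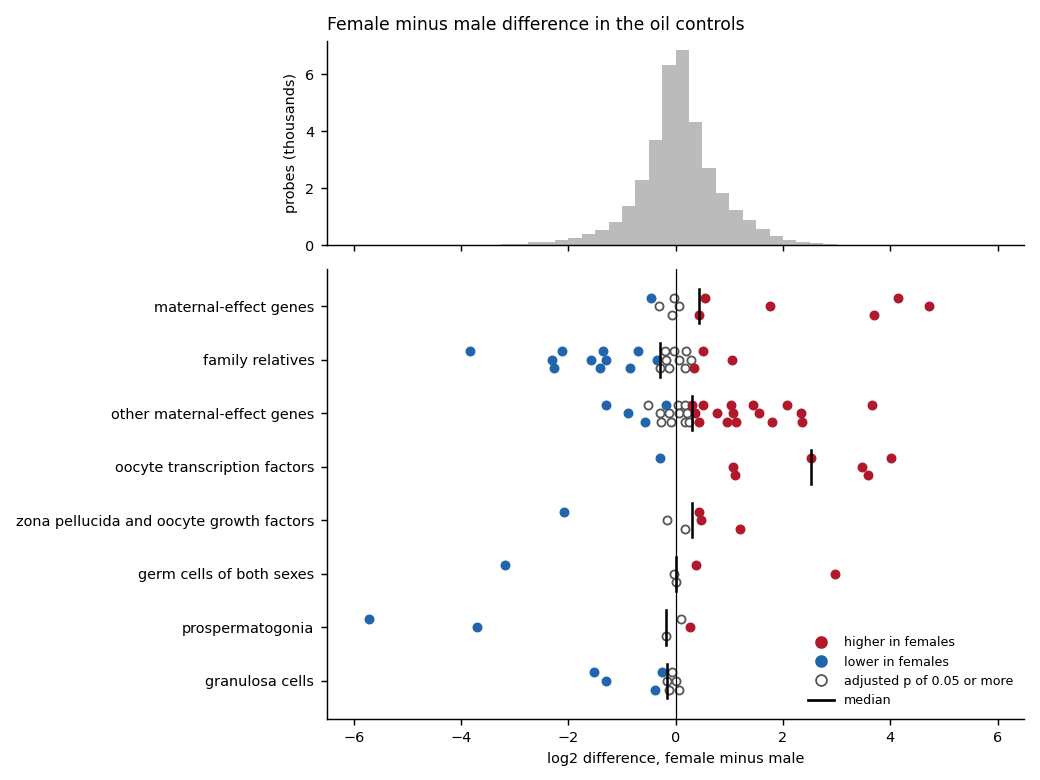
Female minus male log2 difference in the oil controls (x axis). The histogram counts all 35556 probes (counts on its y axis), and each row below it shows the probes of 1 gene list, red where higher and blue where lower in females at an adjusted p under 0.05, with bars at the list medians. Nlrp5 and both Dppa3 probes lie far in the right tail, and the family relatives have their median at -0.29.

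Among the 11 fetal oocyte arrays, several of the genes varied together from array to array. The array of BPA female 2 was the highest for Nlrp5, Padi6, Tle6, Nlrp14, Ooep and both Dppa3 probes, and oil female 2 the lowest for Nlrp5, Padi6, Tle6 and Nlrp14. Padi6 followed Nlrp5 most closely, with Pearson r = 0.96 and Spearman rho = 0.95 over 11 arrays (permutation p = 1e-05, the smallest that 100000 resamples can give, and 5e-05). After Benjamini-Hochberg adjustment over the 10 relations with Nlrp5 these were 1e-04 and 5e-04. Leaving out the 2 arrays farthest from the median of Nlrp5, oil female 2 and BPA female 1, gave r = 0.93, a check that keeps BPA female 2. Leaving out each array in turn gave r from 0.93 to 0.97, and the r of deviations from treatment means was 0.97. Array quality weights were 0.633 for BPA female 2 and 1.311 for oil female 2, and the part of array quality in the pattern was not tested.

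Nlrp14 (r = 0.85, rho = 0.80, adjusted permutation p = 0.0037 and 0.0156) and Tle6 (r = 0.83, rho = 0.86, 0.0041 and 0.0063), whose sex differences had not passed, also followed Nlrp5 within females. Without the 2 farthest arrays their r was 0.73 and 0.74. Ooep reached r = 0.71 and rho = 0.71 (adjusted permutation p = 0.0243 and 0.0307), and the Dppa3 probes r = 0.72 and 0.71 with rho 0.71 and 0.73 (the same adjusted values), with r = 0.65, 0.58 and 0.61 without the 2 arrays. Npm2 (r = 0.23, rho = 0.22), Khdc3 (-0.35, -0.52) and the Zar1 probes (-0.49, -0.45 and -0.19, -0.36) gave adjusted permutation p-values of 0.152 or more. In the 21 male arrays the r with Nlrp5 ran from -0.34 to 0.22 for the 6 probes that followed it in females. For the others it ran from -0.31 (Khdc3) to 0.52 (Zar1 probe 10530496). Nlrp5 read 6.99 to 7.80 in males, near olfactory receptor probes (99th percentile of their mean signal 7.58). The male r therefore cannot decide whether the relation is particular to females. The test of the relation was chosen after the arrays had been seen.

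**Figure D4:**
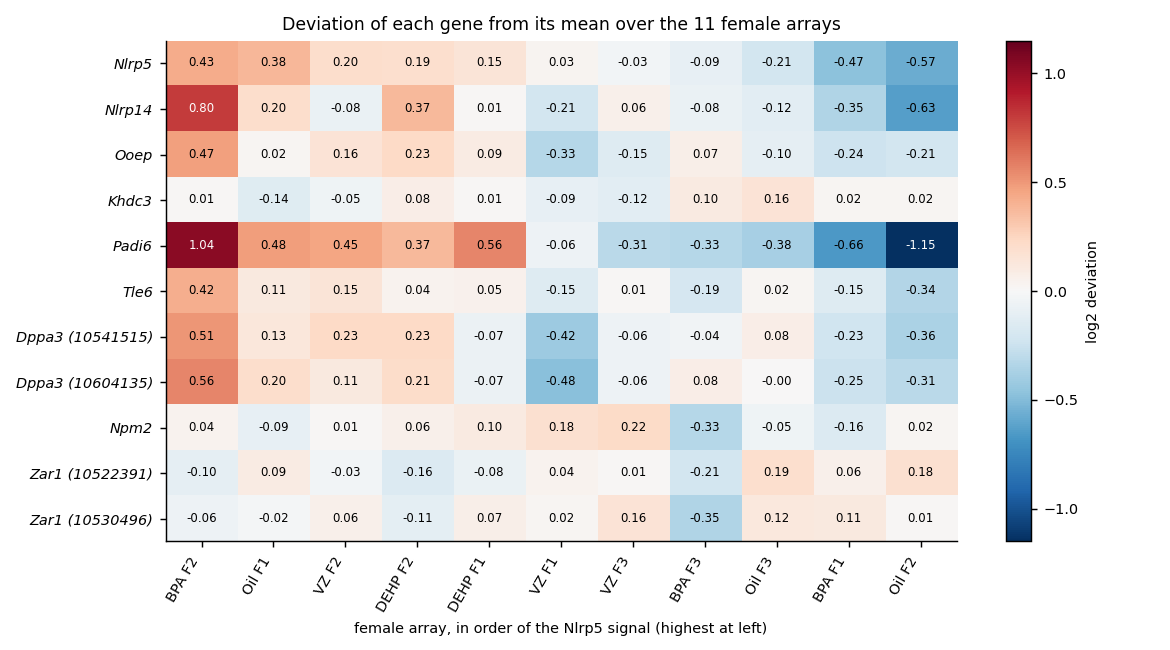
Deviation of each probe (rows) from its own mean over the 11 female arrays (columns, in order of the Nlrp5 signal, highest at left), in log2 units shown by colour and number. Padi6 falls from 1.04 above its mean on BPA female 2 to 1.15 below it on oil female 2, and Nlrp14 and Tle6 share these extremes.

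This pattern was not confined to the maternal-effect genes. The limit of r used here, 0.7, was not set beforehand and lies just under the 0.71 to 0.72 of Ooep and both Dppa3 probes. An r of 0.7 or more with Nlrp5 over the female arrays was found for 6 of 10 probes of the maternal-effect genes, 2 of them of Dppa3, and for 4.63% of all other probes. It was found for 10 of 31 probes of the other maternal-effect genes (Zfp57 0.98, Nlrp4f 0.97, Zbed3 0.93), a list with a median of 0.27 in which Cdh1 (-0.84), Ago2 (-0.83 and -0.72) and Bnc1 (-0.82) ran against Nlrp5, for 3 of 6 zona and growth factor genes (Zp2 0.98, Zp1 0.79, Gdf9 0.77), for 3 of 23 family relatives, and for 2 of 7 oocyte transcription factors (Tbpl2 0.85, Nobox 0.73), with Taf4b at -0.77. Pou5f1, whose promoter drives the EGFP used for sorting, had r = 0.87, the 1 of 5 germ cell genes to reach 0.7. The others were Ddx4 (0.27), Sycp3 (0.26), Dazl (0.11) and Mael (-0.33). None of the 9 granulosa, 10 Sertoli, 4 fetal Leydig, 5 peritubular, 5 endothelial or 4 macrophage and blood probes reached 0.7. The Leydig gene Hsd3b1 lay just under this limit (0.7 after rounding), with Cyp17a1 at -0.07, Cyp11a1 at -0.1 and Star at -0.42. The endothelial genes went both ways, with Cdh5 at -0.81, Tek at -0.72, Kdr at -0.48, Emcn at 0.25 and Pecam1 at 0.3. The part of the sort gate and of these cells in the pattern was not tested. Within groups, Padi6 had an SD of 0.68 in females and 0.16 in males, Nlrp14 0.41 and 0.16, and Tle6 0.24 and 0.11.

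The EDs were next compared with oil within each sex and generation, the 3 EDs of G1R sharing their oil arrays. The limma test called 0 of the 88 differences (11 probes in 8 comparisons), and 12 had an unadjusted p under 0.05. Under BPA, DEHP and VZ these 12 were 1, 2 and 0 in females and 1, 1 and 2 in G1R males. In G2R males they were 1 under DEHP and 4 under VZ. Of all 35556 probes, 1622, 2234 and 2118 had such a p in females and 2474, 5117 and 6493 in G1R males. In G2R males 2456 had it under DEHP and 1925 under VZ. Whether the 11 probes differ from all probes in this was not tested. The share of all probes called was 0% in the 3 female comparisons, in BPA males and in both G2R comparisons, and 0.00562% in DEHP males and in VZ males. The differences ran from -0.49 to 0.82. With this number of arrays the 95% intervals of Nlrp5 in females were -0.32 to 0.50 (BPA), -0.16 to 0.76 (DEHP) and -0.21 to 0.61 (VZ).

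In exposed fetal oocytes the largest difference was that of Padi6 under DEHP, 0.82 (95% interval 0.09 to 1.54, limma adjusted p = 0.766), where 9.37 and 9.18 compare with an oil range of 7.66 to 9.29, and the groups overlapped. Leaving out 1 array moved it between 0.417 (without oil female 2) and 1.23 (without oil female 1). The other differences of Padi6 were 0.36 (BPA) and 0.38 (VZ). Zar1 probe 10522391 read 7.15, 7.24 and 7.25 in oil females and was lower on all 8 treated arrays, at 7.12, 6.97 and 6.85 (BPA), 6.98 and 6.91 (DEHP), and 7.11, 7.03 and 7.08 (VZ). Its differences were -0.24, -0.27 and -0.14 (limma adjusted p between 0.763 and 0.9998). The share of all probes lower on all 8 treated arrays was not counted. The other Zar1 probe gave -0.137, -0.055 and 0.044 and overlapped oil in all 3.

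The remaining genes had differences of -0.11 to 0.375 in the exposed oocytes under BPA, DEHP and VZ in that order. They were 0.09, 0.30 and 0.20 for Nlrp5, 0.31, 0.375 and 0.11 for Nlrp14 and 0.20, 0.26 and -0.01 for Ooep. Those of Tle6 were 0.10, 0.12 and 0.07, and those of Khdc3 0.03, 0.03 and -0.10. Npm2 gave -0.11, 0.12 and 0.17, and the Dppa3 probes 0.13, 0.13 and -0.03 (10541515) and 0.17, 0.11 and -0.10 (10604135). Groups did not overlap for 1 of the 11 probes under BPA (8.17% of all probes), 3 under DEHP (22.3%, with 2 arrays) and 1 under VZ (11.8%).

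In exposed males Dppa3 probe 10541515 had similar values in all 3 treatments. It read 7.59, 7.24 and 7.11 in oil males, 6.97, 6.65 and 6.98 with BPA, 6.78, 6.99 and 6.82 with DEHP, and 6.68, 6.94 and 6.89 with VZ. All 9 treated arrays lay below the 3 oil arrays. The 3 comparisons share these oil arrays, and the share of all probes with this pattern was not counted. The male mean of the probe lay above 96.9% of olfactory receptor probes. The differences were -0.45, -0.45 and -0.48, with limma adjusted p of 0.687, 0.325 and 0.219, while the other Dppa3 probe gave -0.19, -0.41 and -0.07. The Sertoli markers averaged 7.38 to 7.86 on the oil male arrays and 7.62 to 8.91, 7.51 to 7.8 and 7.76 to 8.14 with BPA, DEHP and VZ, and their part was not tested.

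Khdc3 came nearest to the threshold among the 88 differences. It read 6.87, 6.89 and 6.87 in oil males and 6.43, 6.43 and 6.68 with VZ, a difference of -0.36 (95% interval -0.56 to -0.16, limma adjusted p = 0.0919), which passed with array quality weights (adjusted p = 0.0277). Groups did not overlap for 5 of 11 probes in BPA males (13.3% of all probes), all lower than oil (7.86%), for 3 in DEHP males (20.7%) and for 2 in VZ males (27.5%). In G2R males 1 probe under DEHP (9.69%) and 3 under VZ (10%) did not overlap. Zar1 probe 10530496 read 8.35, 8.06 and 7.87 in G2R oil and 7.61, 7.60 and 7.59 in G2R DEHP. Its difference was -0.49 (limma adjusted p = 0.369).

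None of the remaining differences in males passed in the 3 G1R and 2 G2R comparisons. Those of Nlrp5 were 0.09 to 0.16 in G1R, and in G2R -0.28 with DEHP and -0.445 with VZ (adjusted p = 0.913), where VZ and oil did not overlap. Ooep gave -0.23 to -0.13 in G1R and -0.095 to -0.075 in G2R, Padi6 -0.205 to -0.096 and -0.133 to 0.153, and Nlrp14 -0.26 to -0.04 and -0.17 to -0.07. Tle6 lay between -0.08 and 0.10 and Npm2 between -0.175 and -0.035 in all 5. In G2R the Dppa3 probes gave 0.174 and 0.168 (10541515) and 0.108 and 0.426 (10604135), and Khdc3 0.07 and 0.15 with DEHP and VZ. Zar1 probe 10522391 lay between -0.215 and -0.102 in the 5 comparisons, and probe 10530496 between -0.165 and -0.101 in G1R and at -0.247 in G2R VZ.

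Between the generations 1 of the 11 probes passed in each of oil, DEHP and VZ. These counts are near the shares of all probes, 10.3% in oil, 14.5% in DEHP and 7.77% in VZ. Ooep had lower signal in G2R than in G1R oil males, and 1 Dppa3 probe had higher signal in G2R than in G1R males of the DEHP and VZ lines. The oil arrays of Ooep read 8.40, 8.32 and 8.47 in G1R and 7.89, 8.0 and 7.84 in G2R, without overlap. The difference was -0.48 (SE 0.14, limma adjusted p = 0.0249), the 1 call among the 11 probes in oil, where 10.3% of all probes passed. It was lost without G1R oil male 1 or 3 or G2R oil male 1 or 3 (adjusted p from 0.0728 to 0.0887). Under DEHP and VZ the differences of Ooep were -0.33 and -0.35 (adjusted p = 0.107 and 0.118), again without overlap.

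Dppa3 probe 10604135 gave the 1 call among the 11 probes in DEHP (14.5% of all probes) and in VZ (7.77%). In DEHP males it read 6.65, 6.39 and 6.47 in G1R and 7.44, 7.47 and 6.71 in G2R, a difference of 0.71 (limma adjusted p = 0.0211). In VZ males it read 6.66, 6.91 and 6.96 against 7.32, 7.42 and 7.85, a difference of 0.68 (adjusted p = 0.0403). Probe 10541515 differed by 0.52 and 0.54 without passing (0.0917 and 0.110), and in oil the differences were 0.19 for probe 10604135 and -0.10 for probe 10541515. The VZ call was lost in a fit of the 6 arrays compared (0.0774), without moderation (0.0558) and without G1R VZ male 1, 2 or 3 or G2R VZ male 2 or 3 (0.0699 to 0.197), and the DEHP call in a fit of the 6 arrays (0.0975) and without G1R DEHP male 2 or 3 or G2R DEHP male 1 or 2 (0.0586 to 0.109).

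Khdc3 had differences of -0.27 (oil), -0.23 (DEHP) and 0.24 (VZ), none of which passed, and its generation by VZ term was 0.52 (limma adjusted p = 0.119). In limma 0 of the 22 generation-by-treatment terms passed (0% of all probes), and 5 had an unadjusted p under 0.05, a count not set here against that of all probes. Groups did not overlap for 5 of 11 probes in oil (32.6% of all probes), 6 in DEHP (29%) and 4 in VZ (27.1%). Generation, array run and the direction of the cross cannot be told apart in this design. Nlrp5 read 6.99 to 7.80 over the 21 male arrays. Its generation difference was 0.18 in oil, -0.19 in DEHP and -0.42 in VZ, where the groups did not overlap (adjusted p = 0.205), and its generation by VZ term of -0.61 (0.289) was the lowest of the 22. Padi6 gave -0.19, 0.17 and -0.22, Tle6 0.10, -0.08 and 0.10, Nlrp14 0.26, 0.30 and 0.12, and Npm2 -0.23, -0.11 and -0.23, in the order oil, DEHP and VZ. The Zar1 probes lay between -0.21 and 0.13, and none of these passed.

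**Figure D5:**
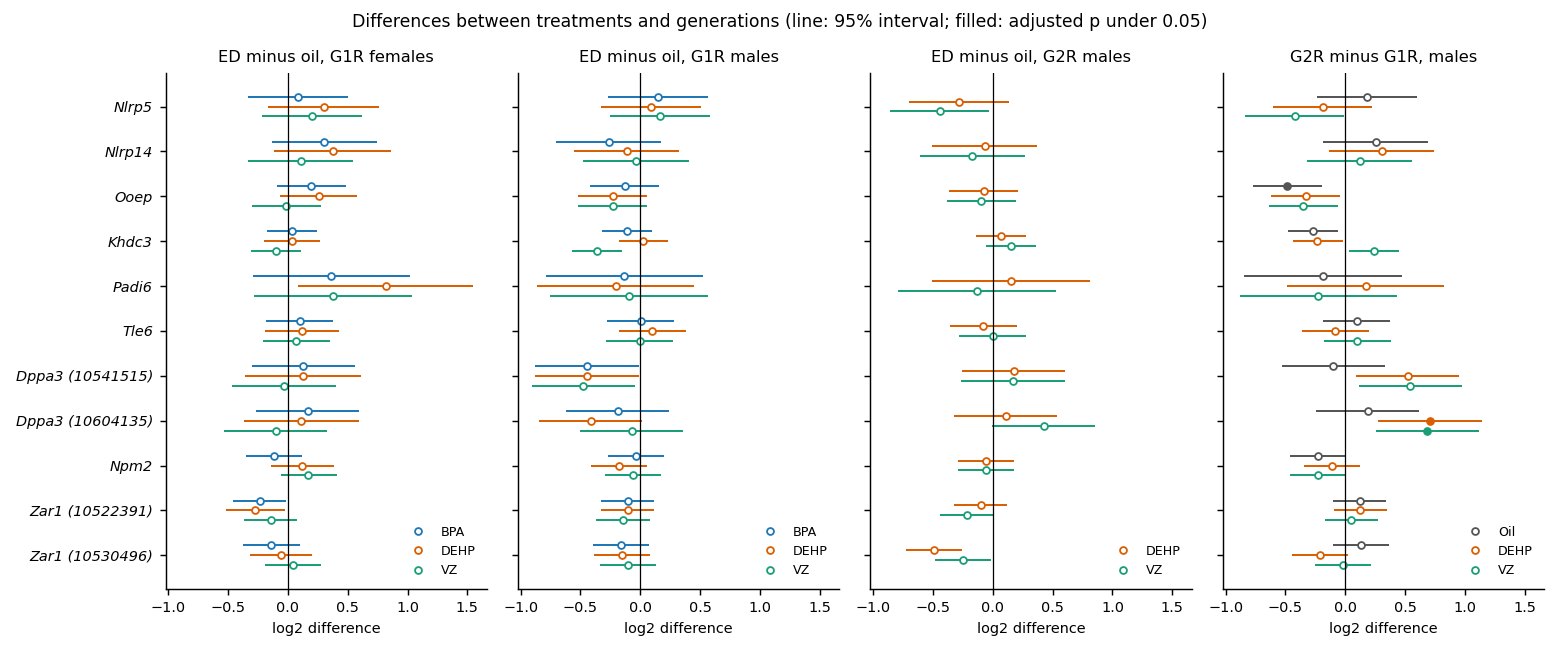
Log2 differences (x axes) of each probe (y axis) with 95% intervals from the limma fit, for ED minus oil in G1R females, G1R males and G2R males, and for G2R minus G1R males. Filled points have an adjusted p under 0.05, which Ooep reached in oil (-0.48) and Dppa3 probe 10604135 in DEHP (0.71) and VZ (0.68), all in the last panel.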

How the data were processed

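Biotin-labelled total RNA of FACS-sorted cells was hybridised to 32 Mouse Gene 1.0 ST arrays in 11 groups. The authors normalized the arrays by RMA in Partek, whose version is not given in the sources used here, and deposited 1 table of log2 signals for 35556 probes. All 32 value columns were matched to samples by the labels. Because RMA equalises the distributions of the arrays, values are relative to the array, and a change shared by most genes would not be seen. The number of arrays limits the precision.

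A group-means model was fitted to all probes and arrays with limma 3.58.1 in R 4.3.3 (lmFit and eBayes, 21 residual degrees of freedom), with Benjamini-Hochberg adjustment over the 35556 probes and a threshold of 0.05. It was tested on simulated data with 200 planted changes. The genes and gene lists were chosen with earlier results of these data known. All 9 genes were named in the sex, ED and generation comparisons, with up to 4 genes of each other list by smallest p, or any gene of a list of 10 or fewer. Nlrp4b, Tle1 and Tle4, the 3 family relatives higher in oil females, were named beyond this limit. Further genes named for their r with Nlrp5 were chosen after their values were seen. Alternatives were ordinary least squares, only the arrays compared, a mean signal above 6.7 (23704 probes, 9 of the 11), probes of 1 gene symbol (21789), cyclic loess, array quality weights, a replicate block, a 1.5-fold minimum and leaving out each array. Promoters came from a RefSeq table (GRCm38.p6). Protein sequences, and promoters of Nlrp14, Dppa3 and Npm2, were not analysed here.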

Additional observations from a re-analysis of the deposited data

How the results depend on the processing

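Of 3676 values of the 11 probes under an alternative, 3633 kept their side of the threshold, with the sign of every called value among them, and 171 of these that passed neither time had the opposite sign. The sign turned together with a call in 1 case, Tle6 in the mean of the 4 sex differences, -0.15 with cyclic loess against 0.01. With a 1.5-fold minimum the calls fell to 4 in the oil sex difference, 5 in the mean of the 4 and 0 in G2R against G1R oil. Array quality weights gave 1 call in VZ males, 2 in G2R against G1R oil and 2 in DEHP. A fit of only the arrays compared gave 0 generation calls in DEHP and 0 in VZ, and ordinary least squares 0 in VZ. Leaving out 1 array gave 0 to 1 generation calls in oil, 0 to 2 in DEHP and 0 to 1 in VZ, 7 in the oil sex difference, 6 to 7 under BPA and DEHP, 7 to 8 under VZ, and 0 in every ED comparison and interaction. The samples share only a replicate number: 1 of 11 same-numbered female and male pairs correlated above 0.1 (-0.166 to 0.11), and with the replicate block the counts were 7, 7, 7, 8 and 9 for the sex differences and 1, 1 and 1 for the generations, the same as without it. The signals of Npm2, Nlrp14, Khdc3 and Zar1 probe 10522391 lay near the level of olfactory receptor probes. So did those of Padi6, Dppa3 and Nlrp5 in males and of Zar1 probe 10530496 in females. This bears on the size of their differences in a way that was not tested, and groups of 2 or 3 arrays limit what can be seen.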

Other observations

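Outside the maternal-effect genes, the gene whose signal ran closest to each of them was found by Pearson r over all 32 arrays, among probes of 1 gene symbol. For Nlrp5 this was Cdca5, which encodes the cohesin regulator sororin (r = 0.995), for Padi6 Mvp, the major vault protein (0.988), and for the 2 Dppa3 probes Triap1 (0.992) and Mat2b (0.991). Ooep ran closest to Scand1 (0.964) and Npm2 to Sphk2, a sphingosine kinase (0.936). For the other genes the highest r was lower, with Kyat3 for Nlrp14 (0.779), Pdzph1 for Khdc3 (0.759), Wdr76 for Tle6 (0.751), and Col27a1 (0.842) and Dclk3 (0.867) for the Zar1 probes. The sexes form separate clusters in these arrays, so an r over all 32 mainly describes the sex difference that a pair shares. By the mean r over the 11 probes the closest genes were Mvp (0.464), Cd180 (0.463), Fyb2 (0.46), Iqca and Ptpn18 (0.459 each).

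Over the 11 fetal oocyte arrays alone other genes came first: Mea1 for Nlrp5 (r = 0.989), Alkbh6 for Padi6 (0.993), Hexdc for Nlrp14 (0.97), and Rad21, a cohesin subunit, for Ooep (0.954). Tle6 ran closest to Fmn2 (0.948), a formin that positions the meiotic spindle and is a maternal-effect gene itself. Dcps (0.951) and Tmsb10 (0.95) came first for the Dppa3 probes, Ncaph, a condensin subunit, for Npm2 (0.917), Gm10832 for Khdc3 (0.926), and Mir296 (0.929) and Cabp1 (0.914) for the Zar1 probes. By the mean r the closest genes were Tmem108 (0.548), Antxr2 (0.542), Pitrm1 (0.534), Lsp1 (0.531) and Grpel1 (0.53). These are the highest of 21789 probes over few arrays and are given as descriptions.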
